A study of Mus musculus with 6 samples.

Results

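The 10 iron and heme handling genes examined here were Alas1, Alas2, Fech, Tfrc, Slc11a2, Slc40a1, Fth1, Ftl1, Cp and Hpx. They were found by gene symbol among the probe sets of the array, and 9 of the 10 had a probe set of their own, of 18193 genes that did. A probe set is a group of short probes for one transcript region, and where a gene had several, the one with the highest mean over the 6 arrays stood for it. The main probe set was thus chosen by its measured mean level, which is given only as a description. The genes themselves were selected on their function with earlier results of these data, this comparison included, already known, so their counts are no independent evidence.

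The study profiled whole hearts from mice aged 3 months in 2 genotypes, with 3 arrays each. TNFαDes-/- mice lacked desmin, the muscle intermediate filament protein, and overexpressed the cytokine TNF-α in the heart, on a mixed 129SV/C57 background. Des-/- mice lacked desmin without the transgene, on a 129SV background. Both groups therefore carried the desmin deletion, and the comparison asks what cardiac TNF-α adds to it. Which promoter drives the transgene is not known here. Strain and transgene cannot be told apart in this design. The labelling protocol describes a pool of 3 hearts per genotype, so arrays of a group may repeat 1 pool. The p-values then reflect array-to-array spread, which may be technical.

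Cells take up iron mainly as transferrin bound to the transferrin receptor, move it out of endosomes through a divalent metal transporter, store it in ferritin and release it through ferroportin. In mitochondria, iron is inserted into protoporphyrin to make heme, which the heart needs for cytochromes and myoglobin. The first step of heme synthesis is catalysed by a housekeeping enzyme in most cells and by a separate, erythroid enzyme in red cell precursors. Iron-regulatory proteins bind hairpins in several of these mRNAs and thereby stabilise the transferrin receptor mRNA or block translation of ferritin when iron is scarce.

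The upstream sequences of Tfrc and Alas2, the members whose main probe sets moved furthest up and furthest down, are shown because proximal promoter letters bear on how a gene is switched on. Each is the run of 250 bases before the annotated start in RefSeq, build GRCm38.p6, on the plus strand (for Tfrc, the first of 2 annotated starts), at chr16:32608646-32608895 for Tfrc and chrX:150547167-150547416 for Alas2.
Tfrc: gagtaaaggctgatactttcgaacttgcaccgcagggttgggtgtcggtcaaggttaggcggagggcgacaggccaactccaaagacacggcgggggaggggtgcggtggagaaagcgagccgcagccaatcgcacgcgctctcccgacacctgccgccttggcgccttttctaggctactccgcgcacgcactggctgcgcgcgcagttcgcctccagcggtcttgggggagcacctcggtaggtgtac
Alas2: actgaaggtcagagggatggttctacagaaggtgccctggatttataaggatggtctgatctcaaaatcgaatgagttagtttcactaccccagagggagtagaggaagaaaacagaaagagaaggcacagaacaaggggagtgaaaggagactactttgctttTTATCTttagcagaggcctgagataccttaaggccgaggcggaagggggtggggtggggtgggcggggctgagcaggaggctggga
Capitals mark TTATCT, the reverse complement of the GATA letters AGATAA, which lay at -86 to -81 from the start of Alas2. GATA factors are known regulators of erythroid genes, Alas2 among them. AGATAA on either strand occurred in 9.99% of 32851 such windows of all genes, 3281 in number. Windows were at hand for 7 members, 11 windows in all. Fech, Slc40a1 and Slc11a2 had none and were not searched. Searched on both strands, TGACNNNGC, the core letters of the antioxidant response element, matched only the window of Hpx among these 11, on the reverse strand, against 10.2% of all windows. The loop letters of the iron-responsive element, CAGTGN, searched on the transcript strand in the first 50 bases after the start, matched only Hpx as well, 40 to 45 bases after the start, against 7.08% of all windows. A match is a description of letters and not a binding site. The mRNAs beyond these first 50 bases were not searched, so a missing match does not show that a member lacks the element.

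Arrays had similar medians of 5.02 to 5.08 on the log2 scale, but differed at the bright end. The 99th percentile was 12.26 to 12.31 in TNFαDes-/- arrays, and 12.27, 11.75 and 11.69 in Des-/- arrays. Des-/- replicate 1 thus lay within the range of the TNFαDes-/- arrays, and Des-/- replicates 2 and 3 lay below it. Without Des-/- replicate 1 this bright-end difference coincides with genotype. A call gained in that fit therefore cannot be told apart from it. Among the brightest 20% of genes, 3639 in number, the median log2 change was 0.27 as deposited and 0.02 after quantile normalization, which gives every array the same distribution. The median over all genes was 0.04 as deposited. Member values below are therefore also given after quantile normalization or without Des-/- replicate 1 where either changes the call. The heart identity of the samples was plain from 8 cardiomyocyte markers such as Myh6 and Tnnt2, which were at 11.74 or above on the log2 scale on every array. The Tnf probe set read 5.998, 6.09 and 5.73 in TNFαDes-/- arrays and 5.79, 5.85 and 5.97 in Des-/- arrays, which overlap, so it does not check the transgene, and whether it can detect the transgene's RNA is not known here. One desmin probe set read 8.75, 8.88 and 8.73 in TNFαDes-/- arrays and 8.42, 8.43 and 8.33 in Des-/- arrays, and a second read 4.76, 4.91 and 4.50 in TNFαDes-/- arrays and 4.95, 5.24 and 5.19 in Des-/- arrays. Both groups carry the deletion, and the probe positions are not known here, so these values check nothing.

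Of the 9 genes with their own probe set, Tfrc and Fech were higher and Alas2 and Slc40a1 were lower in TNFαDes-/- hearts by limma at an adjusted p under 0.05 over all genes. The share was 4 of 9, against 21.3% of all genes, made up of 15.2% higher and 6.05% lower. The groups did not overlap for 6 of the 9, against 38.0% of all genes. The median log2 change of the 9 was 0.30 as deposited and 0.07 after quantile normalization, where 1 was higher and 2 were lower, against 22.5% of all genes called, 12.0% higher and 10.4% lower. Without Des-/- replicate 1, 5 were higher and 2 lower, against 32.0% of all genes called, and 5 and 2 also passed with array weights, against 46.2%.

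**Figure D1:**
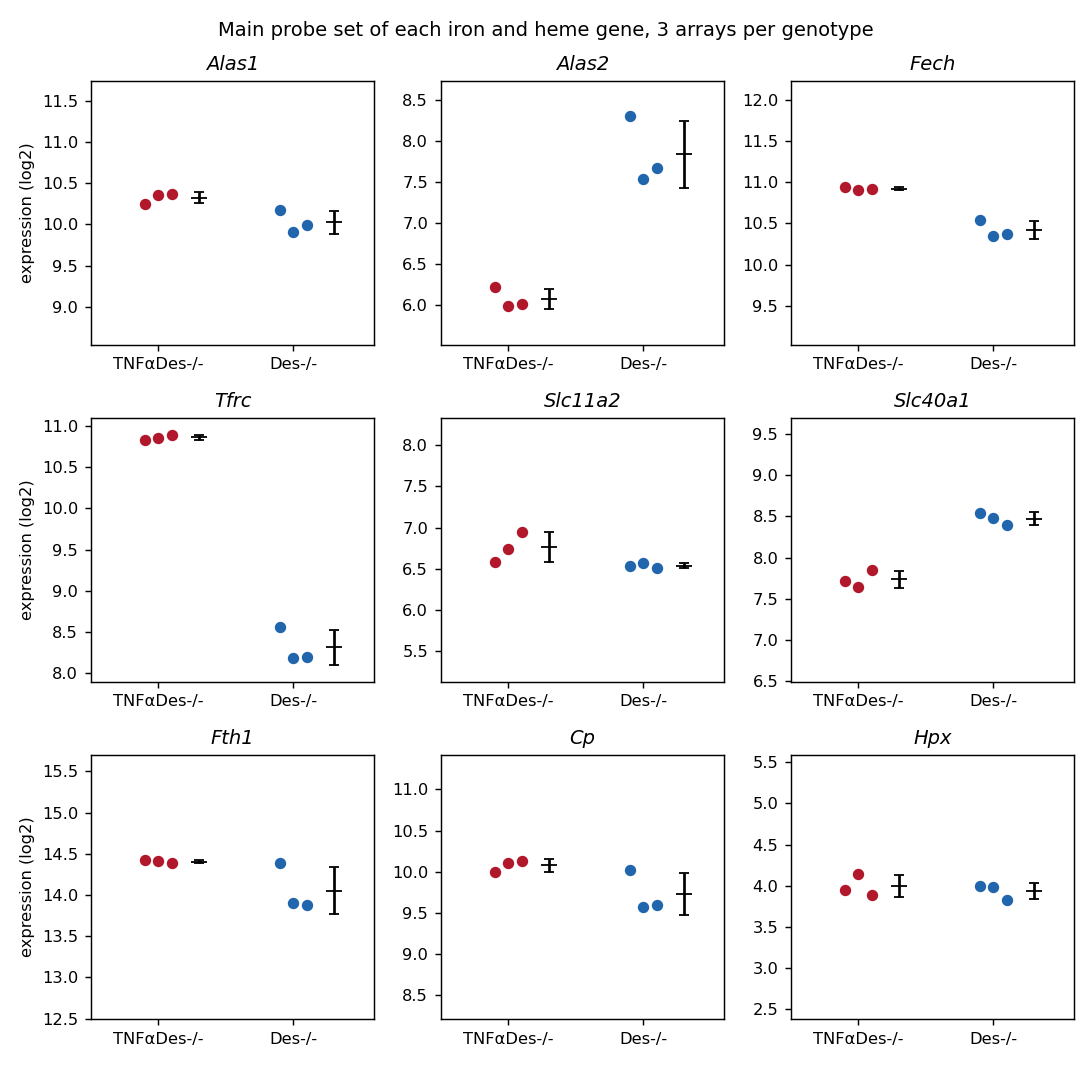
Log2 expression of the main probe set of 9 genes on each of the 3 TNFαDes-/- arrays (red) and 3 Des-/- arrays (blue), with the group mean and SD in black; every panel spans the same number of log2 units. Tfrc lies near 10.86 in TNFαDes-/- arrays and near 8.31 in Des-/- arrays, and Alas2 near 6.08 and near 7.83 in the same order.

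Tfrc, the receptor that brings transferrin-bound iron into the cell, had log2 values of 10.83, 10.86 and 10.90 in TNFαDes-/- arrays, against 8.56, 8.18 and 8.19 in Des-/- arrays. All 3 TNFαDes-/- arrays lay more than 2 log2 units above every Des-/- array, with no overlap. The means were 10.86 ± 0.03 in TNFαDes-/- and 8.31 ± 0.22 in Des-/- arrays (SD, n = 3 each), a log2 change of 2.55 ± 0.12 (SE), or 5.86-fold higher, with a limma adjusted p of 8.06e-06. After quantile normalization the log2 change was 2.30, and it was 2.68 without Des-/- replicate 1.

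The other Tfrc probe sets moved far less. One read 6.21, 6.39 and 6.26 in TNFαDes-/- arrays and 6.03, 6.003 and 6.07 in Des-/- arrays, without overlap, and its log2 change of 0.25 ± 0.09 (SE) did not pass in the limma fit over all probe sets (adjusted p = 0.116). A further one read 3.92, 3.96 and 3.92 in TNFαDes-/- arrays and 3.84, 3.85 and 3.90 in Des-/- arrays, under the median of each array (log2 change 0.07, adjusted p = 0.638). The array also carries 3 Tfrc control probe sets, which are placed along the transcript from its 3′ to its 5′ end and were all below the array medians. The 3′ one read 4.94, 4.88 and 5.02 in TNFαDes-/- arrays and 4.83, 4.80 and 4.74 in Des-/- arrays, and the groups did not overlap. The middle and 5′ ones overlapped between the genotypes. Averaging the gene's 3 own probe sets gave a log2 change of 0.96, less than on the brightest of them, and the call stayed. Which probe set follows the receptor mRNA best was not tested. The 3′ over 5′ difference of these control probe sets was 1.47, 1.31 and 1.40 log2 units in TNFαDes-/- arrays and 1.26, 1.31 and 1.10 in Des-/- arrays. The same difference for Gapdh was 0.34, 0.28 and 0.34 in TNFαDes-/- arrays, against -0.05, -0.0012 and 0.01 in Des-/- arrays, without overlap. For Actb it was 0.78, 0.62 and 0.79 in TNFαDes-/- arrays and 0.41, 0.46 and 0.57 in Des-/- arrays. The Gapdh and Actb differences follow RNA quality and labelling, and their part in the values here was not tested. The Tfrc difference rests on probe sets below the array medians, so it cannot be read in the same way.

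Slc11a2 encodes DMT1, the transporter that carries iron out of the endosome after receptor uptake. Its main probe set read 6.59, 6.75 and 6.95 in TNFαDes-/- arrays, against 6.53, 6.57 and 6.51 in Des-/- arrays. The groups narrowly failed to overlap, and the log2 change of 0.22 ± 0.11 (SE) was not past the test (adjusted p = 0.204). Another of its 4 probe sets read 5.79, 6.14 and 6.08 in TNFαDes-/- arrays and 5.57, 5.48 and 5.37 in Des-/- arrays, and it passed in the fit over all probe sets (log2 change 0.53 ± 0.12, SE, adjusted p = 0.0233). The other 2 changed by 0.04 and 0.05 on the log2 scale, and 1 of them was below the median of every array.

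Slc40a1, encoding ferroportin, the only known iron exporter of mammalian cells, read 7.71, 7.65 and 7.85 in TNFαDes-/- arrays, against 8.55, 8.48 and 8.39 in Des-/- arrays. No value of one genotype reached the other. The means were 7.74 ± 0.10 in TNFαDes-/- and 8.47 ± 0.08 in Des-/- arrays (SD, n = 3 each), and the gene fell by 0.74 on the log2 scale (SE 0.10), or 1.67-fold lower, with a limma adjusted p of 0.00162. Its second probe set read 6.37, 6.12 and 6.47 in TNFαDes-/- arrays and 7.95, 7.68 and 7.67 in Des-/- arrays. It was lower by a log2 change of -1.44 ± 0.13 (SE), or 2.72-fold, with an adjusted p of 0.000449 over all probe sets. The probe sets differed in size of change and shared its direction, and after quantile normalization they gave -0.89 and -1.53.

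Macrophages are a main site of ferroportin in other organs, so their markers stand beside it. Of 15 macrophage and monocyte markers, 7 were higher and 2 lower by limma, 60% against 21.3% of all genes. The median log2 change was 0.41, against 0.04 over all genes. After quantile normalization 7 were again higher and 2 lower, with a median of 0.30, against -0.0038 over all genes. Of all genes 22.5% were then called, 12.0% higher and 10.4% lower. The summed level of the 15 markers on the linear scale was 13071.5 to 13447.4 in TNFαDes-/- arrays and 8096.75 to 10758.7 in Des-/- arrays. Over all genes the sums were also higher, at 7.06e+06 to 7.33e+06 in TNFαDes-/- arrays and 5.36e+06 to 7.16e+06 in Des-/- arrays. These sums use the deposited values, without quantile normalization. Cd14, a receptor for bacterial lipopolysaccharide, rose most (log2 change 1.75 ± 0.10, SE), Lyve1, a receptor of resident macrophages and lymphatic vessels, rose by 1.35 ± 0.20, and Cd68, a lysosomal protein, fell by 1.48 on the log2 scale (SE 0.13). Of 8 endothelial markers 0 were higher and 4 lower by limma, 50% against 21.3% of all genes. At an unadjusted p under 0.05, 0 were higher and 6 lower, against 4209 and 2034 of all 18193 genes. The median log2 change of the 8 endothelial markers was -0.37. Their summed level was 2786.95 to 2900.14 in TNFαDes-/- arrays and 3398.07 to 4185.14 in Des-/- arrays. After quantile normalization 0 were higher and 6 lower, with a median of -0.54. The share of all genes called lower was 10.4% after it, against 6.05% as deposited. In whole hearts, fewer cells of a type and less RNA per cell cannot be told apart, and the part of these cell types in the member values was not tested.

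**Figure D2:**
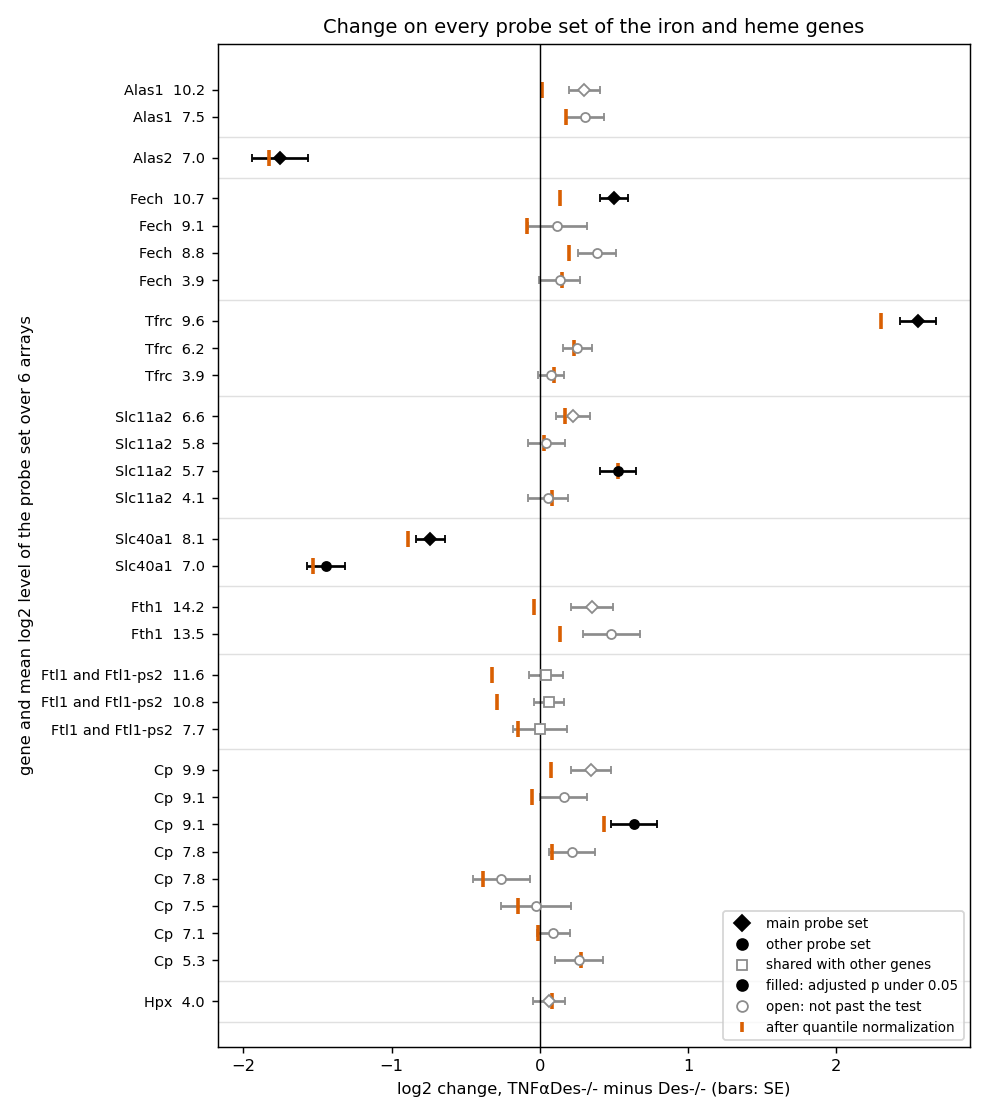
Log2 change, TNFαDes-/- minus Des-/-, on each own or shared probe set of the genes, with its SE; diamonds are main probe sets, circles others, squares those shared with other genes, and filled symbols passed the limma test at an adjusted p under 0.05. Orange ticks give the change after quantile normalization, where Fech moved to 0.14 and Tfrc stayed at 2.30.

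Alas2, the erythroid form of the first enzyme of heme synthesis, had a single probe set, which read 6.22, 5.999 and 6.02 in TNFαDes-/- arrays, against 8.29, 7.54 and 7.67 in Des-/- arrays. Each TNFαDes-/- array was more than 1 log2 unit below the lowest Des-/- array, and Des-/- replicate 1 was the highest. The means were 6.08 ± 0.13 in TNFαDes-/- and 7.83 ± 0.40 in Des-/- arrays (SD, n = 3 each), and the gene fell by 1.75 on the log2 scale (SE 0.19), or 3.37-fold lower, with a limma adjusted p of 0.000534. Over the alternatives tried the log2 change ran from -1.90 to -1.48, with a highest adjusted p of 0.00618, and without Des-/- replicate 1 it was -1.52.

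Adult globins are the main product of red cells and their precursors, and 4 of the 8 probe sets for them are shared between near-identical globin genes. They were looked at after their values were seen. The shared β-globin probe set read 12.39, 12.59 and 12.42 in TNFαDes-/- arrays and 14.00, 13.34 and 13.37 in Des-/- arrays. One shared α-globin probe set read 9.40, 9.43 and 9.37 in TNFαDes-/- arrays and 10.80, 10.55 and 10.47 in Des-/- arrays. The groups stood apart on both, with Des-/- replicate 1 the highest. Over the 4 shared probe sets the log2 change was -1.21 to -0.65. Of these 4, 3 were lower and past the test in the fit over all probe sets (adjusted p from 0.000515 to 0.0724). The share of all probe sets called in either direction was 14.9%. After quantile normalization all 4 were lower and past the test, from -1.50 to -0.997, against 7320 of all 45037 probe sets called. A probe set of Hbb-b2 alone read 4.58, 4.80 and 4.87 in TNFαDes-/- arrays and 6.87, 6.56 and 5.99 in Des-/- arrays (log2 change -1.72 ± 0.21, SE, adjusted p = 0.00153). Its other probe set changed by -0.33 on the log2 scale (adjusted p = 0.0962). The single-gene probe sets of Hba-a2 and Hba-a1 did not pass and overlapped between the genotypes, with log2 changes of 0.29 (adjusted p = 0.452) and 0.09 (adjusted p = 0.582).

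Of 20 red cell markers 14 had a probe set of their own. Of these 14, 0 were higher and 1 was lower by limma, 7.14% against 21.3% of all genes. The lower one was the spectrin gene Sptb (log2 change -0.48 ± 0.09, SE, adjusted p = 0.00693). At an unadjusted p under 0.05, 0 were higher and 3 lower, against 4209 and 2034 of all 18193 genes. Of the 14, 7 were below the median of every array. The summed level of the 14 was 761 to 830 in TNFαDes-/- arrays and 937 to 971 in Des-/- arrays. Without Sptb the sums of the other 13 overlapped, at 417 to 503 in TNFαDes-/- arrays and 464 to 489 in Des-/- arrays. Per the labels, hearts were flushed to remove excess blood, and no label says how much stayed. The part of blood left in the hearts in the Alas2 and globin values was not tested.

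**Figure D3:**
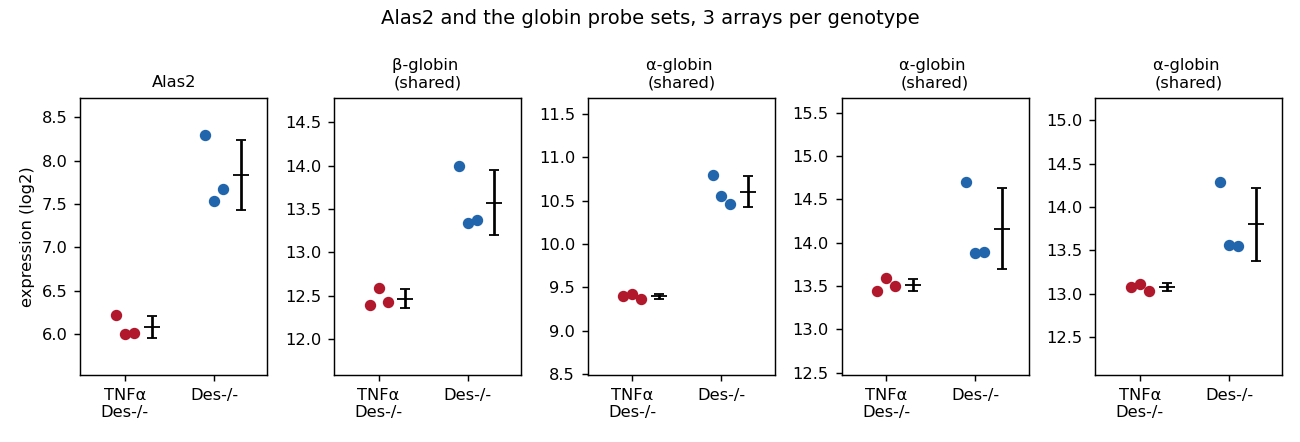
Log2 expression of Alas2 and of the 4 globin probe sets shared between globin genes, on 3 TNFαDes-/- arrays (red) and 3 Des-/- arrays (blue), with group mean and SD. The panels span the same number of log2 units, and in each one all TNFαDes-/- arrays lie below all Des-/- arrays, with Des-/- replicate 1 highest.

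Alas1, the housekeeping form of that first enzyme, read 10.25, 10.35 and 10.38 in TNFαDes-/- arrays, against 10.18, 9.91 and 9.99 in Des-/- arrays. The TNFαDes-/- values were all above the Des-/- values, but by little, and the log2 change of 0.30 ± 0.11 (SE) was not past the test (adjusted p = 0.0806). It was 0.02 after quantile normalization and passed without Des-/- replicate 1 (0.38, adjusted p = 0.0180). A second probe set changed by 0.30 ± 0.13 (SE) on the log2 scale, with overlapping groups (adjusted p = 0.162).

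Fech, ferrochelatase, which inserts iron into protoporphyrin in the last step, read 10.94, 10.91 and 10.91 in TNFαDes-/- arrays, against 10.55, 10.35 and 10.38 in Des-/- arrays. The groups did not overlap, and the TNFαDes-/- arrays were close together. The means were 10.92 ± 0.02 in TNFαDes-/- and 10.42 ± 0.11 in Des-/- arrays (SD, n = 3 each), a log2 change of 0.50 ± 0.10 (SE), or 1.41-fold higher, with a limma adjusted p of 0.00834. The call was lost after quantile normalization, where the log2 change was 0.14 (adjusted p = 0.413). Its other 3 probe sets changed by 0.12, 0.39 and 0.13 on the log2 scale, and none passed in the fit over all probe sets (adjusted p = 0.749, 0.0780 and 0.583). Averaging the 4 gave 0.28 (adjusted p = 0.0724).

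Fth1, the ferritin heavy chain, which oxidises iron as it enters the ferritin shell, read 14.42, 14.41 and 14.38 in TNFαDes-/- arrays, against 14.39, 13.90 and 13.88 in Des-/- arrays. Des-/- replicate 1 lay among the TNFαDes-/- arrays and the other Des-/- arrays below them. The log2 change of 0.35 ± 0.14 (SE) was not past the test (adjusted p = 0.119), and it was -0.04 after quantile normalization. Without Des-/- replicate 1 it was 0.52 and passed (adjusted p = 0.00329). These values lay within 0.30 to 0.63 log2 units of the highest value of their array, near the top of its range. The second Fth1 probe set read 13.92, 13.65 and 13.79 in TNFαDes-/- arrays and 13.78, 13.08 and 13.05 in Des-/- arrays, and it overlapped in the same way (log2 change 0.48, adjusted p = 0.141).

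Ftl1, the ferritin light chain, which helps the mineral core form, was read only by 3 probe sets annotated to it together with Ftl1-ps2, so no value belongs to it alone. The brightest read 11.68, 11.78 and 11.52 in TNFαDes-/- arrays and 11.79, 11.55 and 11.52 in Des-/- arrays. The next read 10.90, 10.82 and 10.84 in TNFαDes-/- arrays and 10.93, 10.76 and 10.69 in Des-/- arrays. Genotypes overlapped on both, with log2 changes of 0.04 ± 0.12 (SE, adjusted p = 0.863) and 0.06 ± 0.10 (SE, adjusted p = 0.760) over all probe sets. After quantile normalization these were -0.32 (adjusted p = 0.107) and -0.29 (adjusted p = 0.116), and the third probe set overlapped too.

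Of the plasma proteins, Cp, ceruloplasmin, is the copper oxidase that loads released iron onto transferrin, and it had 8 probe sets. The main one read 9.99, 10.11 and 10.13 in TNFαDes-/- arrays, against 10.02, 9.57 and 9.60 in Des-/- arrays. Des-/- replicate 1 overlapped the TNFαDes-/- arrays, and the log2 change of 0.35 ± 0.14 (SE) did not pass (adjusted p = 0.106). Without Des-/- replicate 1 it was 0.49 and passed (adjusted p = 0.00581), and it was 0.07 after quantile normalization. Another probe set read 9.41, 9.38 and 9.43 in TNFαDes-/- arrays and 9.15, 8.58 and 8.58 in Des-/- arrays. It alone of the 8 passed in the fit over all probe sets, with a log2 change of 0.63 ± 0.16 (SE, adjusted p = 0.0305), and the 8 ran from -0.26 to 0.63. Hpx, hemopexin, the plasma scavenger of free heme, read 3.95, 4.14 and 3.89 in TNFαDes-/- arrays and 3.998, 3.99 and 3.83 in Des-/- arrays. It lay below the median of all 6 arrays, the groups overlapped, and its log2 change was 0.06 ± 0.11 (SE, adjusted p = 0.754).

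Plasma proteins of liver origin were checked with 9 hepatocyte markers. Of these, 1, the serum glycoprotein Ahsg, was higher (log2 change 1.28 ± 0.09, SE), 11.1% against 21.3% of all genes called. Of the 9, 4, Alb among them, lay below the median of all arrays. The summed level of the 9 was 412 to 460 in TNFαDes-/- arrays and 300.3 to 330 in Des-/- arrays. Without Ahsg the sums of the other 8 overlapped, at 206 to 237 in TNFαDes-/- arrays and 215 to 239.6 in Des-/- arrays. The part of these genes' source in the Cp values was not tested.

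Counting probe sets rather than genes, the members had 33, of which 27 belonged to 1 member each and were tested, 3 were shared and 3 were controls. Of the 27, 4 were higher and 3 lower, against 14.9% of all 45037 probe sets called in either direction. These were 1 each of Tfrc, Fech, Slc11a2 and Cp that were higher, and Alas2 and both of Slc40a1 that were lower.

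The same steps are shared with 69 other genes of iron and heme handling, listed from textbook knowledge with earlier results of these data known, of which 62 had a probe set of their own. Of these, 10 were higher and 7 lower, 27.4%, against 21.3% of all genes, with a median log2 change of 0.15. After quantile normalization 8 were higher and 10 lower, against 22.5% of all genes called, with a median of -0.08. Called both ways were 7 higher and 7 lower. Without Des-/- replicate 1 the counts were 26 and 8, against 32.0% of all genes called. As deposited, the share called was 20% for heme synthesis, 30.8% for heme breakdown and transport and 40% for uptake and export partners. It was 42.9% for iron sensing, 11.8% for mitochondrial iron genes and 0% for heme-binding globins. The calls of Blvra, Hfe and Iscu were lost after quantile normalization, and those of Steap2 (log2 change 0.47, adjusted p = 0.0435), a metal reductase, and of Steap4 (-0.52, adjusted p = 0.00641), Hmox2 (-0.32, adjusted p = 0.0191) and Hspa9 (-0.30, adjusted p = 0.0320) were gained. Steap4 is a related reductase, Hmox2 the constitutive heme oxygenase and Hspa9 a mitochondrial chaperone.

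Hamp, the peptide hormone hepcidin, which makes cells withdraw ferroportin, was the largest of these. It read 6.37, 6.41 and 6.64 in TNFαDes-/- arrays, against 8.74, 8.44 and 8.24 in Des-/- arrays. All TNFαDes-/- arrays were lower, with no overlap, and its log2 change was -2.002 ± 0.14 (SE), or 4.01-fold lower, with a limma adjusted p of 8.61e-05. A second probe set changed by -2.28 ± 0.21 (SE, adjusted p = 0.000562), and over the alternatives the change ran from -2.28 to -1.87. Among the other 13 sensing genes measured, Pcbp1, an iron chaperone and RNA-binding protein (log2 change 1.11 ± 0.19, SE, adjusted p = 0.00421), Bmp2, a ligand that induces hepcidin (0.83 ± 0.24, adjusted p = 0.0423), and Hfe, a partner of the transferrin receptors (0.42 ± 0.09, adjusted p = 0.0113), were higher. Hjv, the coreceptor hemojuvelin (-0.37 ± 0.11, adjusted p = 0.0393), and Neo1, its binding partner neogenin (-0.43 ± 0.11, adjusted p = 0.0271), were lower. The Hfe call was lost after quantile normalization (0.26, adjusted p = 0.111), and Bmp2 lay below the array median on 4 of the 6 arrays. Hjv (-0.64, adjusted p = 0.00187) and Neo1 (-0.60, adjusted p = 0.00404) kept their calls after quantile normalization. Leaving out TNFαDes-/- replicate 1 or 3 or Des-/- replicate 2 or 3 lowered the share of all genes called to 11.4% to 12.3%, from 21.3%. Leaving out 1 array ended the Hjv call in 5 of 6 fits (adjusted p up to 0.122), all but the one without Des-/- replicate 1. It ended the Bmp2 call without TNFαDes-/- replicate 1 or 3 or Des-/- replicate 2 or 3 (adjusted p up to 0.127), the Neo1 call without TNFαDes-/- replicate 1 or 2 or Des-/- replicate 2 or 3 (up to 0.0906) and the Hfe call without Des-/- replicate 2 (0.0542). Median centring ended the Hjv call too (adjusted p = 0.0555), and averaging its probe sets ended that of Neo1 (-0.24, adjusted p = 0.194). The iron-regulatory proteins themselves did not pass, Aco1 with -0.09 ± 0.22 (SE, adjusted p = 0.819) and Ireb2 with 0.18 ± 0.16 (SE, adjusted p = 0.488).

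Heme synthesis enzymes outside the members numbered 5 measured, with 0 higher and 1 lower by limma (2 and 1 at an unadjusted p under 0.05). Of all 18193 genes, 4209 were higher and 2034 lower at that unadjusted threshold. Alad, the second enzyme of the pathway, read 8.93, 9.13 and 9.04 in TNFαDes-/- arrays, against 9.87, 9.80 and 9.71 in Des-/- arrays. The groups lay apart, with a log2 change of -0.76 ± 0.10 (SE, adjusted p = 0.00140). Its second probe set changed by -0.51 (adjusted p = 0.0331).

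Of 13 genes of heme breakdown and transport 3 were higher and 1 lower. Cd163, the macrophage receptor for hemoglobin bound to haptoglobin (log2 change 0.86 ± 0.18, SE, adjusted p = 0.0112), Pgrmc1, a heme-binding membrane protein (0.79 ± 0.13, adjusted p = 0.00421), and Blvra, which turns biliverdin into bilirubin (0.39 ± 0.11, adjusted p = 0.0367), were higher, and Hp, haptoglobin itself, was lower (-0.66 ± 0.13, adjusted p = 0.00766). The Cd163 call was lost without TNFαDes-/- replicate 1 (0.80, adjusted p = 0.0558) or replicate 3 (0.79, adjusted p = 0.0581), and the macrophage marker sums given above were higher as well; their part in it was not tested. The Blvra call was lost after quantile normalization (0.22, adjusted p = 0.0700) and without TNFαDes-/- replicate 1 or 3 or Des-/- replicate 2 or 3 (adjusted p up to 0.137). Hmox1, heme oxygenase 1, which opens the heme ring and frees its iron, read 7.47, 7.47 and 7.10 in TNFαDes-/- arrays, against 6.58, 7.19 and 6.69 in Des-/- arrays. One TNFαDes-/- array fell under the highest Des-/- array, and the log2 change of 0.53 ± 0.18 (SE) did not pass (adjusted p = 0.0659). It passed without Des-/- replicate 2 (0.71, adjusted p = 0.0225), but in no other fit with 1 array left out (adjusted p up to 0.203). After quantile normalization it was 0.43 (adjusted p = 0.169).

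Of 10 uptake and export partners 2 were higher and 2 lower. Slc39a14, a transporter of iron that is not bound to transferrin, changed by 0.71 ± 0.10 on its main probe set (log2, SE, adjusted p = 0.00180), but its other probe sets changed by -0.66, -0.31 and -0.05. Lcn2, a carrier of siderophore-bound iron, was higher (0.48 ± 0.11, adjusted p = 0.0182). Steap3, a ferrireductase that acts with the receptor in endosomes, was lower (-0.57 ± 0.16, adjusted p = 0.0378), as was Slc39a8, a related transporter (-0.51 ± 0.12, adjusted p = 0.0153), which was below the median on 3 arrays. Leaving out 1 array ended the Lcn2 call without TNFαDes-/- replicate 1 or 3 or Des-/- replicate 2 or 3 (adjusted p up to 0.0802). The Steap3 call ended without TNFαDes-/- replicate 1 or 3 or Des-/- replicate 3 (up to 0.132), and the Slc39a8 call without TNFαDes-/- replicate 1 or Des-/- replicate 2 or 3 (up to 0.0682). Trf, transferrin, was not analysed here. Of 17 mitochondrial iron and iron-sulfur genes 2 were higher and 0 lower by limma (7 and 0 at an unadjusted p under 0.05). Of all 18193 genes, 4209 were higher and 2034 lower at that unadjusted threshold. The 2 were Lyrm4 (log2 change 0.58 ± 0.13, SE, adjusted p = 0.0147) and Iscu (0.48 ± 0.15, adjusted p = 0.0491), a partner and the scaffold of iron-sulfur assembly. Iscu lost its call after quantile normalization (0.12) and in 5 of 6 fits with 1 array left out, all but the one without Des-/- replicate 1. Lyrm4 lost it without TNFαDes-/- replicate 1 (adjusted p = 0.0623). After quantile normalization 1 gene of the mitochondrial list was higher and 1 lower, against 12.0% and 10.4% of all genes. The median log2 change of the list was then -0.11, against 0.15 as deposited. None of the 3 heme-binding globins passed in limma, with 1 higher and 0 lower at an unadjusted p under 0.05, and myoglobin, Mb, changed by 0.49 (adjusted p = 0.0882) within 0.05 to 0.17 log2 units of the highest value of its arrays, and by -0.0024 after quantile normalization.

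**Figure D4:**
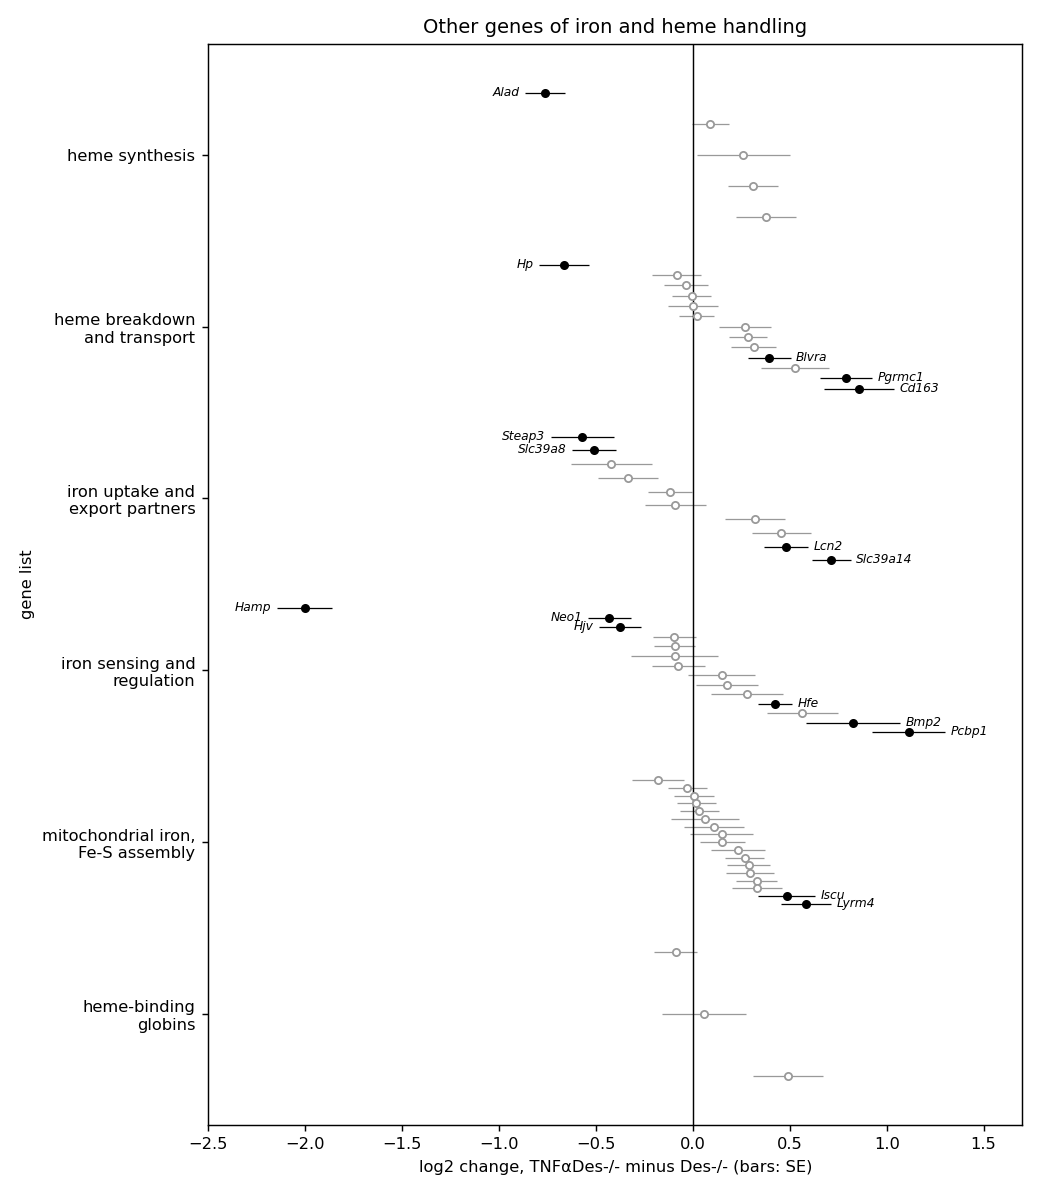
Log2 change, TNFαDes-/- minus Des-/-, with its SE for 62 genes of 6 lists, ordered by change within each list; filled points passed the limma test over all genes at an adjusted p under 0.05. Hamp at -2.002 and Pcbp1 at 1.11 are at the ends.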

How the data were processed

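Heart RNA was hybridised to 6 one-colour Affymetrix oligonucleotide arrays, 3 per genotype, and groups were taken from the sample titles. The authors deposited log2 values for 45101 probe sets, made with RMA per the submitters' processing notes, with version and settings not given in the sources used here. RMA log2 values have no true zero and understate the change of dim probe sets. A fold is 2 to the power of the log2 change. Gene names came from GEO's platform annotation. Of 45037 probe sets that were not controls, 34945 had 1 symbol, 932 several and 9160 none. Tests used limma (3.58.1, R 4.3.3) with Benjamini-Hochberg adjustment at 0.05, over 18193 genes for main probe sets and over all 45037 for single probe sets, with all 6 arrays and genotype alone in the model. Alternatives were quantile normalization, median centring, intensity trend, robust fitting, array weights, replicate number as a block, removal of dim probe sets, averaging a gene's probe sets, leaving out less specific probe sets (_a_at, _s_at or _x_at), and leaving out each array. With 3 arrays per genotype, precision is limited by their number. If the arrays of a group repeat 1 pool of hearts, they carry no spread between animals. The code was tested on simulated data. All members were named, and of the pathway lists every gene past the test with Hmox1, Aco1 and Ireb2. Members and lists were chosen with earlier results of these data known.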

Additional observations from a re-analysis of the deposited data

How the results depend on the processing

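Of 132 member values under alternative settings, 120 kept direction and side of the threshold, 7 passed newly, 3 lost the call and 2 reversed. The reversed ones were Fth1 after quantile normalization (-0.041) and Hpx without TNFαDes-/- replicate 2 (-0.013, in a range of -0.013 to 0.11 with 1 array left out). Slc39a14 reversed to -0.077 with all probe sets averaged. Aco1 reversed to 0.25 with array weights, 0.040 with probe sets averaged and 0.064 with less specific probe sets left out, and ran from -0.24 to 0.17 with 1 array left out (0.058 without TNFαDes-/- replicate 2, 0.17 without Des-/- replicate 1). The cause was not tested. Fech lost its call after quantile normalization (0.14), with probe sets averaged (0.28) and with less specific ones left out (0.12). Tfrc, Alas2 and Slc40a1 kept theirs in every alternative in which they were tested. In the fit over all probe sets, though, only 1 of the 3 own Tfrc probe sets passed. Alas2 and Fth1 have no probe set when less specific ones are left out, and Hpx none after the dim filter. Array weights raised the count of genes to 8414, of members past the test to 7 and of pathway genes to 38. Leaving out 1 array gave 2068 to 5814 genes, 4 to 7 members and 7 to 34 pathway genes. The highest counts came without Des-/- replicate 1 and the lowest for genes without TNFαDes-/- replicate 3. Of called genes 71.5% were higher as deposited, and 53.6% after quantile normalization. Deviations of same-numbered arrays from their group means correlated at 0.25, 0.31 and -0.30, and not every array correlated best with its own number. Deviations within a group cancel out, so these correlations cannot settle whether the numbers pair the arrays. With the replicate block 4278 genes were called, against 3869 without it, with 4 members as before and 21 pathway genes, Hmox1 among them (adjusted p = 0.0208).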

Other observations

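Of 8 fibroblast markers 2 were higher and 0 lower by limma, 25% against 21.3% of all genes, and of 8 cardiomyocyte markers 0 passed. At an unadjusted p under 0.05 fibroblast markers gave 2 higher and 1 lower, and cardiomyocyte markers 4 higher and 0 lower. Of all 18193 genes, 4209 were higher and 2034 lower at that threshold. The median log2 changes of fibroblast and cardiomyocyte markers were 0.21 and 0.40 as deposited and -0.05 and -0.09 after quantile normalization. After it 1 fibroblast marker was higher and 3 were lower, and 0 cardiomyocyte markers were higher and 2 lower. Of all genes 12.0% were then higher and 10.4% lower. Dcn, decorin, a collagen-binding proteoglycan, read 13.59, 13.68 and 13.58 in TNFαDes-/- arrays and 13.02, 12.55 and 12.48 in Des-/- arrays (log2 change 0.93 ± 0.15, SE, limma adjusted p = 0.00307), and Col1a2, a chain of type I collagen, changed by 0.67 ± 0.11 (SE, adjusted p = 0.00387). After quantile normalization the Col1a2 change was 0.30 (adjusted p = 0.133). Another Col1a2 probe set changed by 0.03 and a further one by 0.07 on the log2 scale. Neither passed in the limma fit over all probe sets (adjusted p = 0.887 and 0.796). A second Dcn probe set changed by -0.04 in that fit (adjusted p = 0.892). Of the endothelial genes, Egfl7, a secreted vascular protein, was the lowest, at -0.65 ± 0.11 (SE, adjusted p = 0.00391), with Tie1 (-0.57 ± 0.12), Tek (-0.49 ± 0.11) and Pecam1 (-0.42 ± 0.11) also lower.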
